A study of Mus musculus with 12 samples.

Results

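Dorsal skin holds a layer of white fat cells below the dermis, and 10 genes of adipocytes were followed here through all samples of the series. They were chosen by name: the hormones Adipoq and Lep, the secreted protease Cfd, the enzymes Car3 and Pck1, the lipid droplet proteins Plin1, Plin4 and Cidec, the fatty acid carrier Fabp4, and Ucp1 of brown fat. Of the 10 genes, 9 were measured among 22180 genes with a row of their own, and Cfd was not analysed here. RNA of whole dorsal skin was read on 12 expression arrays, each from 1 pool that its label describes as male and female C57Bl/6 mice. The 6 groups are WT, IL-6KO (without the cytokine IL-6), IL-17C+ involved and uninvolved skin (mice that overexpress IL-17C, an epithelial cytokine of psoriasis), and IL-17C+KO involved and uninvolved skin (the same overexpression crossed to IL-6KO). Involved is the labels' word for affected skin. Each group had n = 2 pools, 1 at 10 weeks and 1 at 14 weeks of age, with 4 mice in the 10-week WT and IL-6KO pools and 5 mice in every other pool, 58 in all. No group had 2 pools of the same age. The sources used here name neither the promoter that drives IL-17C nor whether involved and uninvolved pools share mice. The skin of the groups without the transgene was taken from a similar region, and GEO's skin type field calls the WT skin uninvolved and the IL-6KO skin involved.

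Adipocytes store triglyceride in 1 large lipid droplet and release it as fatty acids and glycerol when hormones ask for it. Perilipins and Cidec coat and enlarge that droplet, a carrier such as Fabp4 moves fatty acids through the cytosol, and adiponectin and leptin report the state of the store to other organs. In mouse skin the dermal fat layer lies between the dermis and a thin sheet of skeletal muscle, and its thickness changes with the hair cycle. The mean log2 level of 15 hair shaft genes varied between the groups, given here at 10 and 14 weeks. WT pools read 5.03 and 5.45, those labelled IL-6KO 7.81 and 7.84. IL-17C+ uninvolved pools read 7.10 and 8.41, and involved ones 7.15 and 6.49. For IL-17C+KO the involved pools read 4.39 and 5.78, the uninvolved pools 7.03 and 7.01. The part of the hair cycle in the differences below was not tested. In whole skin, fewer cells of a type and less RNA per cell cannot be told apart.

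The labels were checked first. Il17c read 4.67 and 4.96 on the log2 scale in WT skin at 10 and 14 weeks, and 4.74 and 4.16 in IL-17C+ uninvolved skin, against 6.30 and 6.17 in skin labelled IL-6KO. The IL-17C+ involved pools read 5.81 and 6.63, and the 4 IL-17C+KO pools read between 5.32 and 6.25. If its row reads the transgene, Il17c went against the labels IL-6KO and IL-17C+ uninvolved. Il6 read 2.68 and 2.79 in skin labelled IL-6KO and 4.93 and 5.00 in skin labelled IL-17C+KO uninvolved, the highest values of the 12 arrays, and between 2.88 and 4.64 on the other 8. The sources used here do not say whether these rows read the transgene or the disrupted part of Il6, so every group name below is a label and every direction drawn from it rests on that label. Markers of inflammation went against the site labels of IL-17C+KO skin. The mean of 14 stress keratin and antimicrobial genes was 5.85 and 8.07 in the pools labelled involved and 9.79 and 10.03 in those labelled uninvolved, and that of 12 neutrophil genes 4.08 and 4.83 against 6.31 and 6.92. In IL-17C+ skin both means were higher in the pools labelled involved. The arrays' median log2 levels lay between 3.97 (WT, 14 weeks) and 4.23 (WT, 10 weeks). Of the 9 adipocyte genes, 8 read above the array median on all 12 arrays, and Ucp1 read below it on all 12. Lep came close to it in some pools, at 4.26 beside 4.23 in WT at 10 weeks. In IL-17C+KO uninvolved skin at 14 weeks it read 4.10 beside 4.01, so the size of its differences is uncertain.

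Adipoq, which encodes the hormone adiponectin, read 5.21 and 6.52 (log2 intensity, 10 and 14 weeks) in the WT pools. The IL-6KO pools read 5.96 and 6.05, the IL-17C+ involved pools 5.54 and 5.68 and their uninvolved counterparts 5.94 and 5.79. In IL-17C+KO skin the involved pools read 5.78 and 6.28 and the uninvolved pools 5.39 and 6.02. The WT pools were the lowest and the highest of the 12. Adjacent group means, from 6.03 in IL-17C+KO involved down to 5.61 in IL-17C+ involved skin, differed by less than the spread of the WT pair (SD 0.92, n = 2). Lep, the satiety hormone leptin, read 4.26 and 6.46 in the WT pools. The IL-6KO pools read 4.82 and 6.18, the IL-17C+ involved pools 4.83 and 4.31 and their uninvolved counterparts 5.68 and 5.34. In IL-17C+KO skin the involved pools read 5.31 and 4.82 and the uninvolved pools 5.39 and 4.10. It was higher at 14 weeks in the groups without the transgene and lower at 14 weeks in all 4 transgenic groups. The highest mean was 5.51 ± 0.24 (SD, n = 2) in IL-17C+ uninvolved skin, and the lowest was 4.57 ± 0.37 in IL-17C+ involved skin.

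Car3, an abundant cytosolic carbonic anhydrase of fat cells and of slow skeletal muscle fibres, read 10.41 and 11.62 in the WT pools. The IL-6KO pools read 10.07 and 10.53, the IL-17C+ involved pools 9.01 and 9.38 and their uninvolved counterparts 11.14 and 10.99. In IL-17C+KO skin the involved pools read 10.79 and 10.71 and the uninvolved pools 9.79 and 10.26. Both IL-17C+ involved pools lay below the other 10. Between its lowest and highest pool Car3 spanned 2.61 log2 units, the widest range of the 9 genes. Pck1, whose enzyme makes the glycerol backbone for triglyceride in fat cells, read 5.17 and 6.35 in the WT pools. The IL-6KO pools read 6.36 and 5.66, the IL-17C+ involved pools 6.10 and 6.61 and their uninvolved counterparts 5.85 and 6.21. In IL-17C+KO skin the involved pools read 5.84 and 7.73 and the uninvolved pools 6.01 and 7.01. Its range of 2.56 ran from the 10-week WT to the 14-week IL-17C+KO involved pool, and its 6 groups overlapped.

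Among the droplet proteins, Plin1, the gatekeeper of lipolysis at the droplet surface, read between 5.64 (IL-17C+ involved, 10 weeks) and 7.05 (WT, 14 weeks), with a median of 6.06. Plin4, a perilipin of fat cells that skeletal muscle also makes, read 6.46 and 7.63 in the WT pools. The IL-6KO pools read 6.75 and 7.19, the IL-17C+ involved pools 6.15 and 6.29 and their uninvolved counterparts 7.15 and 6.88. In IL-17C+KO skin the involved pools read 7.67 and 7.24 and the uninvolved pools 6.91 and 6.90. Here too both IL-17C+ involved pools were the lowest of the 12. Cidec, which drives the fusion of droplets, ranged from 6.42 (WT, 10 weeks) to 7.99 (IL-17C+KO involved, 14 weeks). Its highest mean was 7.94 ± 0.06 in IL-17C+KO involved skin and its lowest 7.03 ± 0.25 in IL-17C+ involved skin. Fabp4, a fatty acid carrier that capillary endothelium and macrophages make as well, ranged from 9.65 (WT, 10 weeks) to 11.57 (IL-6KO, 10 weeks). Ucp1, the uncoupler of brown fat mitochondria, stayed between 3.21 and 3.61, so neither a level nor a difference of Ucp1 can be read from these arrays.

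**Figure D1:**
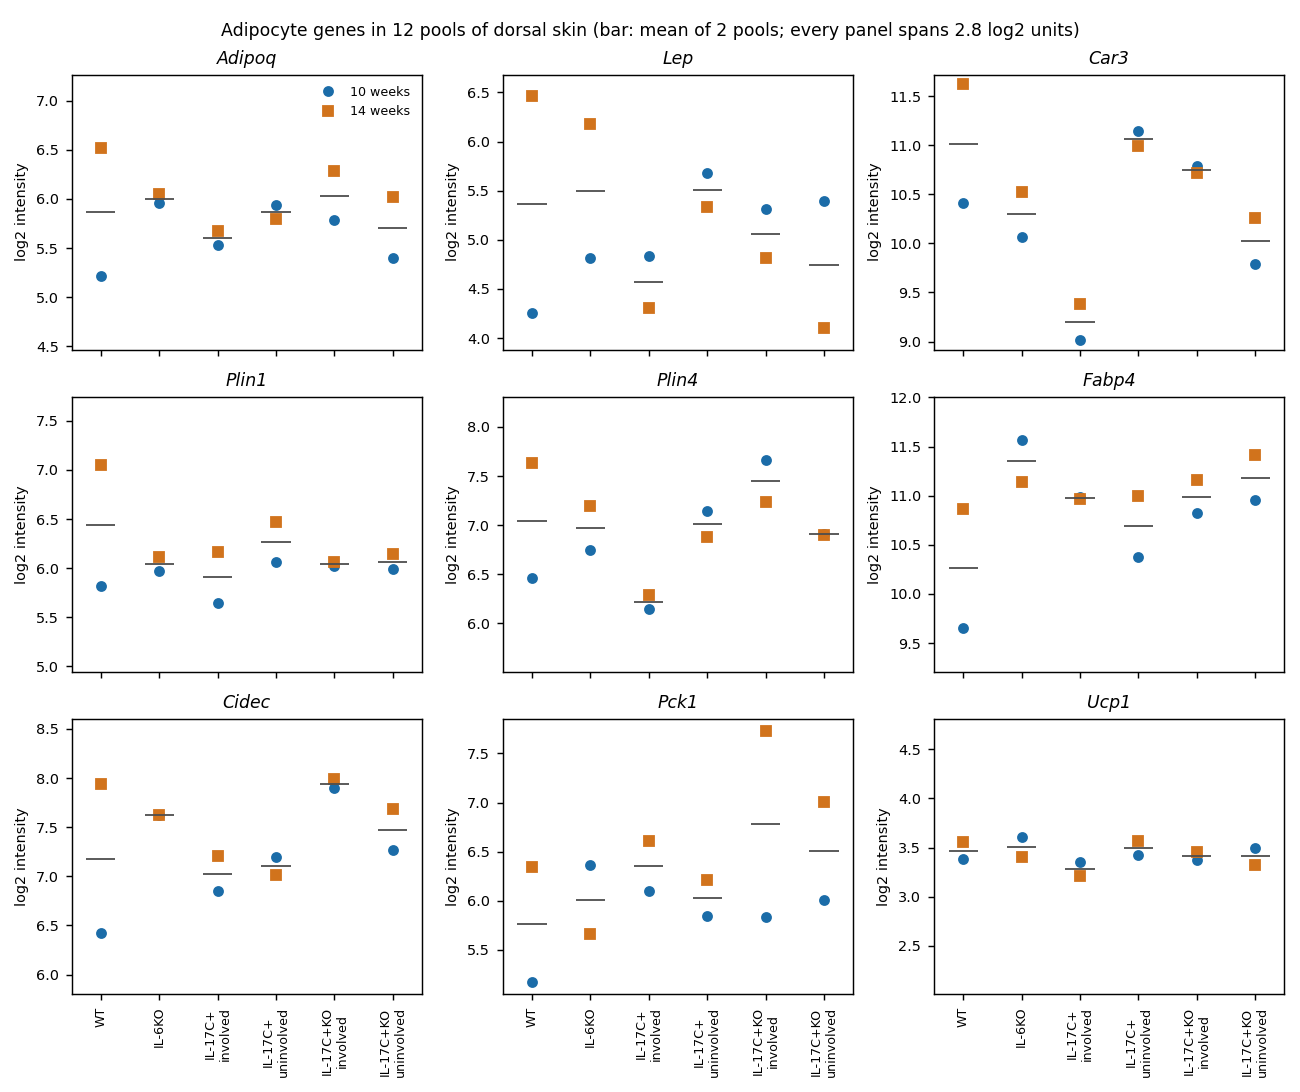
Log2 intensity of the 9 measured adipocyte genes in each of the 12 pools by group (circles 10 weeks, squares 14 weeks, bar the mean of the 2 pools), with every panel spanning the same number of log2 units. The WT pair is spread widely for 8 genes, and Car3 and Plin4 are lowest in IL-17C+ involved skin, at 9.01 and 9.38 and at 6.15 and 6.29.

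The promoters of 4 genes that moved together between the WT pools are shown as examples. Plin1 and Cidec moved with them and have promoters that are not printed. Of the 10 genes, 8 had an entry among the RefSeq promoters of build GRCm38.p6, and Car3 and Fabp4 did not. The 250 bases before the start are printed 5′ to 3′ on the gene's strand, from chr16:23146286-23146535 (plus strand) for Adipoq, chr6:29059971-29060220 (plus) for Lep, chr17:56109783-56110032 (minus) for Plin4 and chr2:173152823-173153072 (plus) for Pck1. Capitals mark matches on either strand to CCAAT (bound by NF-Y), TTGCNNAA (a C/EBP core), TGACG (the core of a cAMP response element), TATAAA or DR1, the direct repeat that PPAR and RXR bind (2 copies of AGGTCA with 1 base between).
Adipoq: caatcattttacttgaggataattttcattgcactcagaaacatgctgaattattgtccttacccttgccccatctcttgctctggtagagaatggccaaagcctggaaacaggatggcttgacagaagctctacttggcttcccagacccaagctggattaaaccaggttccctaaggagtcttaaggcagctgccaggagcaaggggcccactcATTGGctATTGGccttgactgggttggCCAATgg
Lep: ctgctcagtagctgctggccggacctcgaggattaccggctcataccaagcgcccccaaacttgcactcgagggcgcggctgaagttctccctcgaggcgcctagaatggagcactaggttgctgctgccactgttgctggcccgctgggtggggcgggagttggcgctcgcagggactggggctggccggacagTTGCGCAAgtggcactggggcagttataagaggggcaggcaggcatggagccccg
Plin4: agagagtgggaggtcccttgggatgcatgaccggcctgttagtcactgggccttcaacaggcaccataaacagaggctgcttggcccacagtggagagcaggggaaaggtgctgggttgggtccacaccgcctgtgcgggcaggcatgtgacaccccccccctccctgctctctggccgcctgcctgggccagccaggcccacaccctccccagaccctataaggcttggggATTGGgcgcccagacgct
Pck1: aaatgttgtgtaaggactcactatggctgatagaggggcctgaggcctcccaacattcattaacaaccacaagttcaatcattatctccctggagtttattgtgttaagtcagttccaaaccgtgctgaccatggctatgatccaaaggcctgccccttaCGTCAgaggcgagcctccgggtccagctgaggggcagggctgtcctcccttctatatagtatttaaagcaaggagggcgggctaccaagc
The Adipoq promoter held 3 CCAAT matches, at -34 to -30, -27 to -23 and -7 to -3 from the start, and the Plin4 promoter held 1 at -18 to -14. Of 32851 promoters, 33.8% held that motif in the same window. Lep held the palindrome TTGCGCAA at -55 to -48, a match to the C/EBP core that 9.56% of promoters held, and Pck1 held a cAMP element core at -90 to -86, found in 17.8%. Among the promoters not printed, the C/EBP core matched for Plin1 at -187 to -180 and -58 to -51 and for Cidec at -198 to -191. The cAMP element core matched for Ucp1 at -147 to -143. None of the 4 held TATAAA (12.4% of promoters) or the direct repeat (0.0335%), which says only that these letters are not in this window.

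The widest shared movement of the adipocyte genes was between the 10-week and 14-week WT pools. The 14-week pool was at least 2-fold higher for 8 of 9 genes, and at least 2-fold differences in either direction made up 6.27% of all genes in that pair. Lep was higher by 2.21 log2 units, Cidec by 1.52, Adipoq by 1.30, Plin1 by 1.23, Fabp4 by 1.22, Car3 by 1.21, Pck1 by 1.17 and Plin4 by 1.17, and Ucp1 by 0.17. The size for Lep is uncertain, since its 10-week value of 4.26 lay near the array median. The median of the 9 differences was 1.22, beside 0.03 over all genes. With 1 pool at each age this difference has no replicate check and no test. The WT arrays also had the highest (10 weeks, 4.23) and the lowest (14 weeks, 3.97) median of all arrays. Repeating the quantile normalization left 5 of 9 genes at 2-fold or more, with a median of 1.05.

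The other 5 groups did not show this. In IL-6KO skin 1 of 9 genes (Lep, 1.36 higher at 14 weeks) reached 2-fold, where 5.45% of all genes did. In IL-17C+ involved skin none did (0.96% of all genes), and in IL-17C+ uninvolved skin none did (2.46%). In IL-17C+KO involved skin Pck1 was 1.89 higher at 14 weeks (2.64% of all genes), and in IL-17C+KO uninvolved skin Pck1 was 2-fold higher and Lep 1.29 log2 units lower (0.803%). The medians of the 9 differences in these groups lay between -0.15 and 0.42. The difference of the WT pair from the other pairs was not tested. In the model over all 6 groups, 14 against 10 weeks moved no adipocyte gene past the threshold, and limma passed 0% of all genes (adjusted p under 0.05, Benjamini-Hochberg). At an unadjusted p under 0.05 stood 8.37% of all genes, in either direction, and 3 adipocyte genes, whose differences were positive at 14 weeks: Pck1 by 0.71 ± 0.26 (SE, adjusted p = 0.5709), Adipoq by 0.42 ± 0.18 (adjusted p = 0.5879) and Plin1 by 0.42 ± 0.17 (adjusted p = 0.5709).

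**Figure D2:**
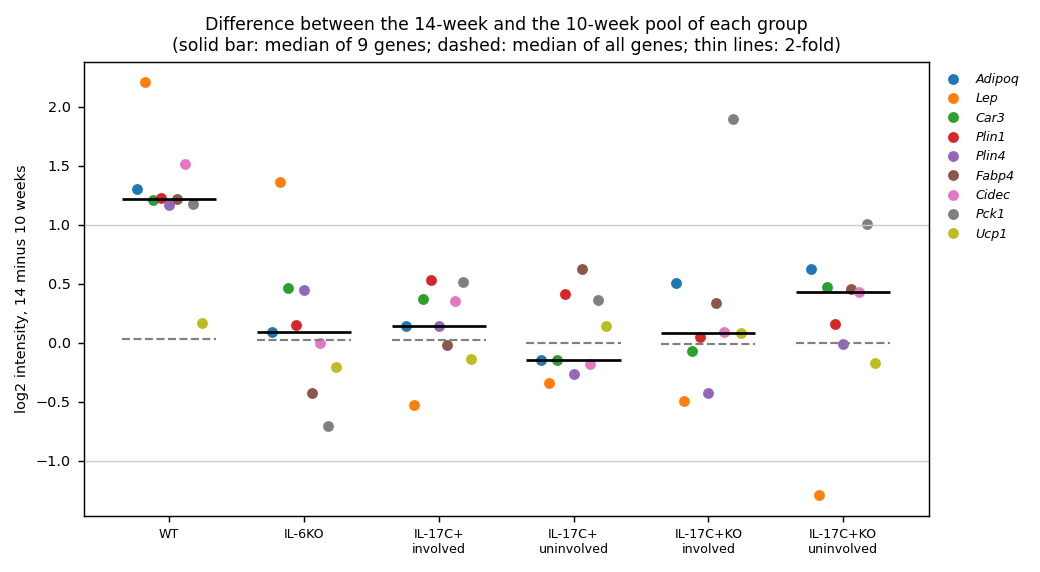
Log2 difference between the 14-week and the 10-week pool of each group for the 9 genes (points), with their median (solid bar), the median of all genes (dashed) and 2-fold lines (thin). In WT, 8 of 9 points lie above the upper 2-fold line around a median of 1.22, and in the other groups the medians lie between -0.15 and 0.42.

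Other fat cell genes of the WT pools mostly went the same way, to different extents. Of 15 lipogenesis genes, all 15 were higher at 14 weeks, 5 of them at least 2-fold: the desaturase Scd1 by 1.19, Pcx (pyruvate carboxylase) by 1.19, the fatty acid synthase Fasn by 1.09, the acetyl-CoA carboxylase Acaca by 1.07 and Dgat2 (the last step of triglyceride synthesis) by 1.05. All 12 lipid and glucose uptake genes were higher, with Lpl, the lipase that feeds circulating fat to the cell, at 1.46 and the insulin-responsive glucose transporter Slc2a4 at 1.10 among 3 that reached 2-fold. Of 15 adipokine genes 4 reached 2-fold, led by Retn (resistin) at 1.59. Of 10 adipogenic transcription factors none was 2-fold higher, with Pparg at 0.84 and Cebpa at 0.63, and Cebpd was 1.11 lower. Of 14 further droplet and lipolysis genes 1 was 2-fold higher, Pde3b (which breaks down cAMP after insulin) at 1.24. The 12 brown and beige fat genes did not move as a list, with 7 of 12 higher and a median of 0.12. Of these, 2 were 2-fold higher, the mitochondrial subunits Cox8b (2.49) and Cox7a1 (1.31), and the lowest was Ppargc1b at -0.93. In the same pair of pools the mean of 22 skeletal muscle genes went from 8.99 to 9.58, with 5 of them 2-fold higher and 1 lower. Repeating the quantile normalization left fewer list genes at 2-fold higher: 1 of 15 for lipogenesis (median 0.46 in place of 0.75), 1 of 12 for uptake (0.44 in place of 0.71), 3 of 15 for adipokines and 0 of 22 for muscle (0.37 in place of 0.67). Xist, made by the inactive X chromosome of females, went from 4.15 to 9.22, and the mean of 3 Y-linked genes from 5.34 to 5.15. The Xist value of the 10-week WT pool lay below the median of its array (4.23), which taken alone goes against the label of male and female mice for that pool. The hair shaft mean went from 5.03 to 5.45, with 2 of 15 genes 2-fold higher. The part of muscle content, of the hair cycle and of the sex make-up of the pools in this difference was not tested.

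Across the 12 arrays the adipocyte genes followed each other only in part. Among 36 pairs of the 9 genes the median Pearson correlation was 0.48 and 32 pairs were positive, with the highest for Car3 and Plin4 (0.82) and for Adipoq and Cidec (0.82), and the lowest for Lep and Pck1 (-0.27). The mean of the 9 genes, each centred on its own mean over the arrays, was lowest in WT at 10 weeks (-0.62) and highest in WT at 14 weeks (0.62). The next lowest were both IL-17C+ involved pools, at -0.44 and -0.29. The genes most like that mean, of 6518 that varied with an SD of at least 0.3, were Hint3 (r = 0.94), Isoc1 (0.93) and Rpl31-ps20 (0.93) over 12 arrays. Those most like Adipoq alone were Chpt1 (0.89), which makes phosphatidylcholine, Isoc1 (0.89) and Snx16 (0.88), followed by Lpl (0.88). These correlations describe 12 pools, in which the WT pair weighs heavily.

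In IL-17C+ involved skin against WT, Car3 was the 1 adipocyte gene of 9 that passed the test, and it was lower. The model passed 1.8% of all genes here. Car3 fell by 1.82 ± 0.33 log2 units (SE; 3.52-fold lower, 95% interval -2.53 to -1.10, limma adjusted p = 0.01557) and lower at both ages. Plin4 differed by -0.83 ± 0.33 (adjusted p = 0.3306), Lep by -0.79 ± 0.63 (adjusted p = 0.7082) and Plin1 by -0.53 ± 0.29 (adjusted p = 0.5167), while Fabp4 differed by 0.72 ± 0.36 (adjusted p = 0.4636) and Pck1 by 0.60 ± 0.44 (adjusted p = 0.6859). Of the 9 differences 7 were negative, with a median of -0.26 beside 0.01 over all genes. Without the 10-week WT and IL-6KO pools, an alternative chosen after the data were seen, 3 genes passed: Car3 at -2.35 (adjusted p = 0.006479), Lep at -2.23 (adjusted p = 0.01005) and Plin4 at -1.48 (adjusted p = 0.02203). Plin4 also passed without the 10-week WT pool alone (-1.42, adjusted p = 0.04486). The call of Car3 was lost without the 14-week WT pool (-1.32, adjusted p = 0.1183) and without the 10-week or the 14-week IL-17C+ involved pool (adjusted p = 0.1825 and 0.1468).

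Within IL-17C+ mice, the comparison of involved with uninvolved skin gave the same single call. Car3 fell by 1.87 ± 0.33 in involved skin (3.65-fold lower, adjusted p = 0.01321), at 10 weeks by 2.13 and at 14 weeks by 1.61, where 1.61% of all genes passed. The remaining 8 genes did not pass: Lep differed by -0.94 ± 0.63 (adjusted p = 0.6178), Plin4 by -0.80 ± 0.33 (adjusted p = 0.3489), and Cidec by -0.08 ± 0.35. This comparison and the preceding one share the involved pools. The call was lost without the 10-week uninvolved pool (-1.55, adjusted p = 0.1087) and without either involved pool (adjusted p = 0.1376 and 0.1719).

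Skeletal muscle markers moved with Car3 in these comparisons. The mean log2 level of 22 muscle genes, in the same order of 10 and 14 weeks, was 7.37 and 7.07 in IL-17C+ involved skin, against 8.99 and 9.58 in WT and 9.45 and 9.13 in IL-17C+ uninvolved skin. Of the 22, 21 had a negative difference from WT and 19 from uninvolved skin, and the median differences were -2.24 and -2.38. In each comparison 16 passed the adjusted threshold as lower. The slow-fibre genes Myh7, Tnnt1 and Tnnc1 were not among the 16 against WT, nor were Myh2, Myh4 and Mb. With the muscle mean as a covariate, Car3 differed by -0.78 ± 0.66 from WT and by -0.83 ± 0.66 from uninvolved skin and did not pass (adjusted p = 0.9998 and 0.9997). In that fit 0 of 22180 genes passed in either comparison. Stress keratins and antimicrobial genes (14 measured of 16), which mark inflamed epidermis, moved the other way, with means of 9.80 and 10.03 in IL-17C+ involved skin and 5.13 and 4.56 in WT. A further row of the array maps to Car3 and was not used because its mean was lower. It read 7.89 and 7.58 in IL-17C+ involved skin, 8.77 and 10.40 in WT and 9.01 and 9.37 in IL-17C+ uninvolved skin, differed by -1.85 and -1.46, and missed the threshold (adjusted p = 0.07487 and 0.1902). In this row the 10-week IL-17C+KO uninvolved pool read 7.26, below both IL-17C+ involved pools.

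**Figure D3:**
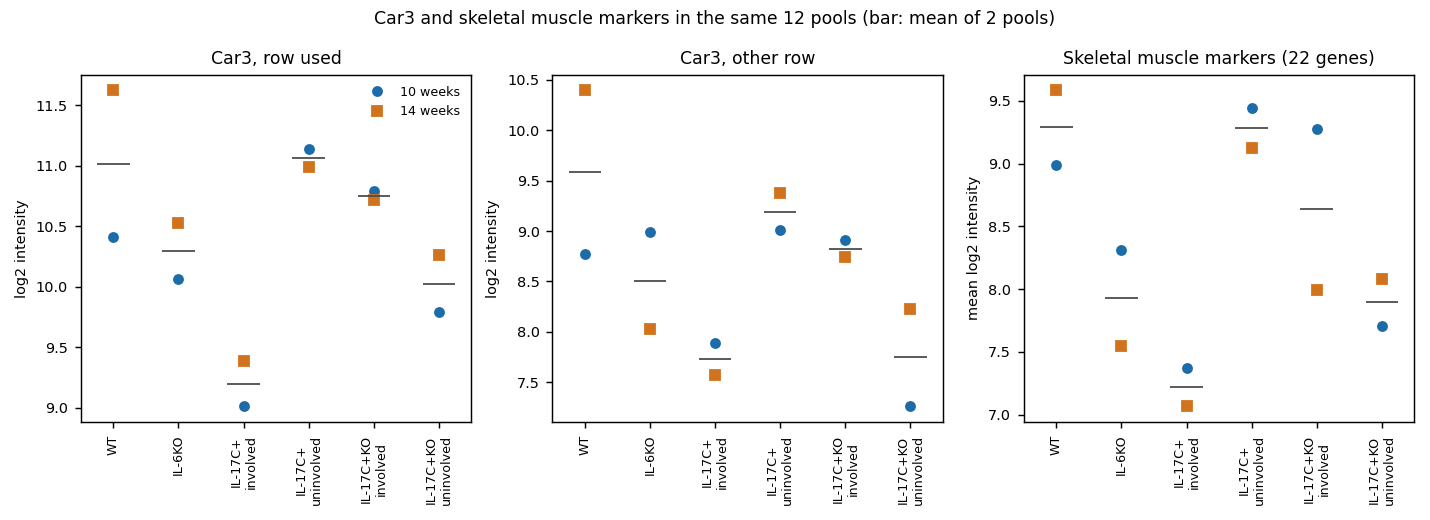
Log2 intensity of both rows of Car3 and the mean log2 intensity of 22 skeletal muscle genes in the 12 pools by group (circles 10 weeks, squares 14 weeks, bar the mean of the 2 pools). Both rows and the muscle mean are low in IL-17C+ involved skin (muscle mean 7.37 and 7.07) and higher in WT and IL-17C+ uninvolved skin. The lowest pool of the row not used is IL-17C+KO uninvolved at 10 weeks (7.26). Each panel has its own axis.

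Between involved transgenic skin without and with IL-6 no adipocyte gene passed the test. IL-17C+KO minus IL-17C+ involved skin came to 1.55 ± 0.33 for Car3 (2.93-fold, adjusted p = 0.05815), 1.24 ± 0.33 for Plin4 (2.36-fold, adjusted p = 0.1498) and 0.92 ± 0.35 for Cidec (adjusted p = 0.3872), and the median of the 9 differences was 0.43. Those of Fabp4 (0.0083) and of Ucp1, which lay below the array medians, carry no direction. Here 0.649% of all genes passed. The pools of the 2 groups did not overlap for Car3, Plin4 and Cidec, nor for Adipoq and Ucp1. The share of all genes without overlap was not counted, so this sets no gene apart. Car3 passed in several alternatives, for example without either WT pool (adjusted p = 0.02717 and 0.02661) or without either IL-17C+ uninvolved pool (adjusted p = 0.03454 and 0.03389), and Plin4 passed without either WT pool (adjusted p = 0.0485 and 0.04822). The muscle mean was 9.28 and 7.996 in IL-17C+KO involved skin, and 20 of 22 muscle genes had a positive difference from IL-17C+ involved skin (median 1.52), of which 2 passed the adjusted threshold. With the muscle mean as a covariate the difference of Car3 was 0.84 ± 0.51.

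Did the difference between skin labelled involved and uninvolved itself differ between IL-17C+ and IL-17C+KO mice? For Car3 it did, by 2.59 ± 0.47 (adjusted p = 0.01039), being -1.87 in IL-17C+ mice and 0.72 in IL-17C+KO mice. The same term was negative for all 14 stress keratin and antimicrobial genes (median -8.43, 13 passed). It was also negative for 11 of 12 neutrophil genes (median -4.12, 9 passed). The median difference of involved from uninvolved skin was 5.22 and 2.20 for these lists in IL-17C+ mice. In IL-17C+KO mice it was -2.92 and -2.11. Loss of IL-6 and the site of inflammation cannot be told apart here, and the sign for Car3 rests on the site labels. The model passed 2.58% of all genes, and Car3 was the 1 of 9 adipocyte genes among them. Plin4 differed in the same sense by 1.34 ± 0.47 (adjusted p = 0.2192) and Lep by 1.25 ± 0.89 (adjusted p = 0.7055). Of the muscle genes 17 of 22 passed in the same direction, with a median of 3.16. With the muscle mean as a covariate Car3 differed by 1.18 ± 0.91 and did not pass. Every adipocyte gene had an adjusted p of 0.9999 in that fit, so the miss does not single out Car3. The second row of Car3 gave 2.53 (adjusted p = 0.07458). Leaving out 1 of 5 pools also ended the call of Car3: either IL-17C+ involved pool (adjusted p = 0.06299 and 0.06296), either IL-17C+KO uninvolved pool (0.06494 and 0.05115) or the 10-week IL-17C+KO involved pool (0.08286).

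**Figure D4:**
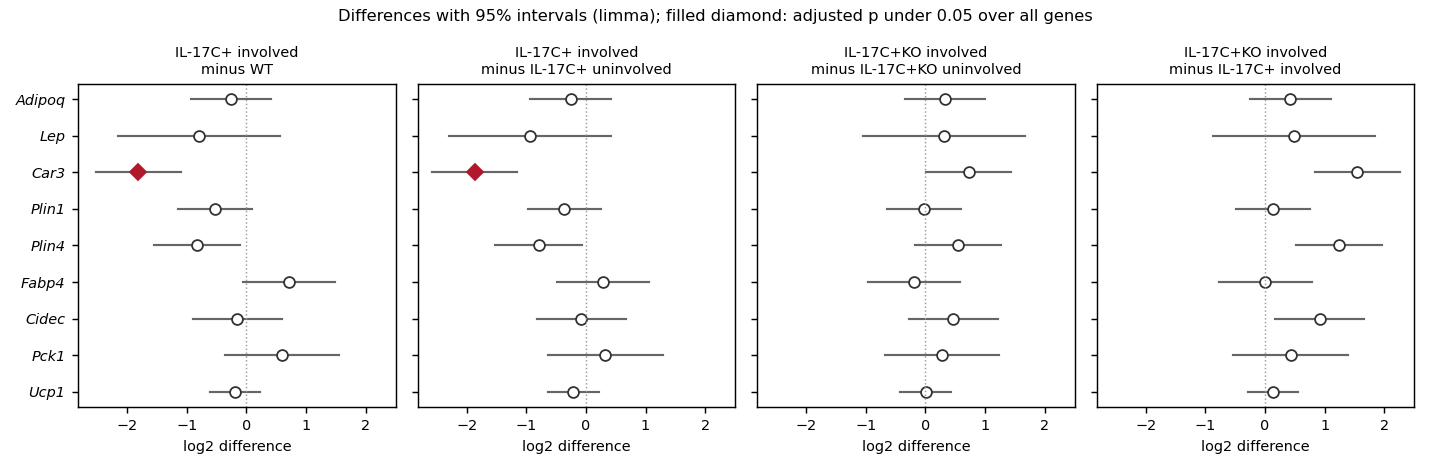
Log2 differences of the 9 genes with their 95% intervals in 4 comparisons (limma, filled diamonds have an adjusted p under 0.05 over all genes). Car3 is filled in both comparisons of IL-17C+ involved skin, at -1.82 and -1.87, and no gene is filled in the other 2 panels.

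No adipocyte gene passed in the other 6 comparisons between groups. In IL-6KO against WT skin (0.455% of all genes passed), Fabp4 differed by 1.09 ± 0.36 (adjusted p = 0.328), being 1.92 higher at 10 weeks and 0.27 higher at 14 weeks. Car3 differed by -0.72 ± 0.33 (adjusted p = 0.5893). The muscle mean was 8.32 and 7.55 in IL-6KO against 8.99 and 9.58 in WT skin. The stress keratin and antimicrobial mean was 6.50 and 7.96 against 5.13 and 4.56. Of 15 hair shaft genes, 9 passed as higher. Their part in these differences was not tested. In IL-17C+ uninvolved against WT skin (0.0541% passed) the 9 differences had a median of 0.02, and the interval for Car3 ran from -0.66 to 0.76. There 4 of 15 hair shaft genes passed as higher. In IL-17C+KO uninvolved against IL-17C+ uninvolved skin (0.712% passed) Car3 differed by -1.04 ± 0.33 (adjusted p = 0.2855), and the muscle mean was 7.71 and 8.08 against 9.45 and 9.13. Between involved and uninvolved skin of IL-17C+KO mice (0.505% passed) Car3 differed by 0.72 ± 0.33 (adjusted p = 0.7998). Against IL-6KO skin, IL-17C+KO involved skin (0.171% passed) differed most for Pck1, by 0.77 ± 0.44 (adjusted p = 0.9995), and IL-17C+KO uninvolved skin (0.397% passed) for Lep, by -0.75 ± 0.63 (adjusted p = 0.8833).

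Further genes of fat metabolism were counted in 6 lists chosen with earlier results of these data known. In IL-17C+ involved skin against WT, 5 of the 77 measured list genes passed, all higher, where 1.8% of all genes passed (244 higher and 155 lower). Fabp5, the epidermal fatty acid carrier, rose by 2.44 ± 0.33 (adjusted p = 0.002911), and Elovl3, an elongase of brown fat and of sebaceous glands, by 2.42 ± 0.50 (adjusted p = 0.02904). Dgat1, which makes triglyceride in many tissues, rose by 1.43 ± 0.30 (adjusted p = 0.03189), the transcription factor Cebpb by 1.11 ± 0.24 (adjusted p = 0.03352) and Hilpda, a lipase inhibitor, by 0.97 ± 0.22 (adjusted p = 0.04676). None of these is specific to fat cells. Elovl3 is itself 1 of the 13 sebaceous gland genes measured, so their mean is not a separate marker. That mean was 6.67 and 6.92 in WT and 6.92 and 7.08 in IL-17C+ involved skin. Of the 13, 8 were higher and 5 lower. Besides Elovl3 only Scd3 passed, at -2.61 (limma adjusted p = 0.01068). The part of sebaceous gland content in the difference of Elovl3 was not tested. In this comparison the list medians lay between -0.39 (uptake genes) and 0.46 (droplet and lipolysis genes). All 5 calls were lost without the 10-week IL-17C+ involved pool (adjusted p between 0.07497 and 0.357), and those other than Fabp5 also without the 14-week involved pool (0.1501 to 0.294) or the 14-week WT pool (0.06684 to 0.1791). Cebpb, Dgat1 and Hilpda missed as well without the 10-week WT pool (0.1271 to 0.1459) or either IL-17C+KO uninvolved pool (0.05275 to 0.08036), and Hilpda without either IL-17C+KO involved pool (0.06472 and 0.06477).

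Against IL-17C+ uninvolved skin, 3 of the 77 list genes passed in IL-17C+ involved skin, where 1.61% of all genes passed, and all 3 were of the uptake list. Fabp5 rose by 2.08 ± 0.33 (adjusted p = 0.007393), Irs1, an adaptor of the insulin receptor, fell by 1.28 ± 0.26 (adjusted p = 0.02705), and the lipoprotein receptor Vldlr, named to complete the count, fell by 1.93 (adjusted p = 0.03419). Each was lost without the 10-week IL-17C+ involved pool (0.1283 for Fabp5, 0.2298 for Irs1, 0.2468 for Vldlr) and without the 14-week one (0.05541, 0.1882 and 0.2185). Fabp5 and Irs1 were also lost without the 14-week uninvolved pool (0.05892 and 0.05939), Irs1 and Vldlr without the 10-week one (0.1945 and 0.2888), and Vldlr without either IL-17C+KO uninvolved pool (0.05089 and 0.05068). In the mean of all its rows, Irs1 differed by -0.77 (adjusted p = 0.1885). With the muscle mean as a covariate no list gene passed in either comparison, nor did any other gene.

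Outside these comparisons and the interaction, 2 of the 77 list genes passed. Of all genes, 0.712% passed between IL-17C+KO and IL-17C+ uninvolved skin and 0.505% between the sites of IL-17C+KO mice. Both list genes stood out in IL-17C+KO uninvolved skin. Fabp5 was higher in IL-17C+KO uninvolved than in IL-17C+ uninvolved skin (8.44 and 8.14) by 1.72 ± 0.33 (adjusted p = 0.03269). Dio2 activates thyroid hormone in brown fat and in other tissues. It was higher in IL-17C+KO uninvolved than in IL-17C+ uninvolved skin by 1.32 ± 0.24 (adjusted p = 0.02256). In IL-17C+KO involved skin it was lower than in uninvolved skin by 1.29 (difference -1.29 ± 0.24, adjusted p = 0.03521). Dio2 read above the array median in the IL-17C+KO uninvolved pools alone, at 4.27 and 4.74, so the size of its difference is uncertain, and in the mean of its rows it passed neither comparison (adjusted p = 0.6057 and 0.6995). Leaving out single pools ended each call. Fabp5 missed without either IL-17C+ involved, either IL-17C+KO uninvolved or the 14-week IL-17C+ uninvolved pool (adjusted p between 0.05442 and 0.2991). Dio2 missed between the uninvolved groups without either IL-17C+ uninvolved or the 14-week IL-17C+KO uninvolved pool (0.05286 to 0.3563). Between the sites Dio2 missed without any 1 of the 4 IL-17C+KO pools or the 14-week IL-6KO pool (0.05012 to 0.5046). The stress keratin and antimicrobial mean was 9.79 and 10.03 in IL-17C+KO uninvolved skin, against 5.54 and 4.84 in IL-17C+ uninvolved and 5.85 and 8.07 in IL-17C+KO involved skin. Its part in these differences was not tested.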

How the data were processed

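The authors deposited 1 table of array intensities, made with RMA in Affymetrix Expression Console per the submitters' processing notes, whose versions the sources used here do not give. These are linear values, and log2 was taken. Of 41345 rows, 23521 name 1 gene, and the row with the highest mean stood for each of 22180 genes. Groups came from the sample titles. The model of limma 3.58.1 in R 4.3.3 had group and, as the replicate block, age (lmFit, then eBayes with trend) over all 12 arrays, with 5 residual and 7.65 prior degrees of freedom and Benjamini-Hochberg adjustment over all genes, in 11 comparisons. The p-values measure the spread between these pools only, and 2 arrays a group limit the precision.

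The adipocyte genes, the lists and the tests were chosen with earlier results of these data known. Beyond the adipocyte genes, each list named at most 2 genes that passed with the smallest p, or the 1 with the smallest p. In the WT age pair, list genes past 2-fold were named after their values were seen. Alternatives changed the block, trend, filter, normalization, rows, covariates and arrays. Promoter sequences are from RefSeq. The model was tested on simulated data.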

Additional observations from a re-analysis of the deposited data

Results flagged for a closer look

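In 6 genes the difference between skin labelled involved and uninvolved was itself different between IL-17C+ and IL-17C+KO mice, by the interaction term of limma (adjusted p under 0.05), which 2.58% of all genes passed. Car3, the adipocyte gene among them, had an interaction of 2.59 ± 0.47 (SE, adjusted p = 0.01039), from -1.87 in IL-17C+ to 0.72 in IL-17C+KO skin. In the same term 13 of 14 stress keratin and antimicrobial genes passed, with a median of -8.43. Their mean was 9.79 and 10.03 in the IL-17C+KO pools labelled uninvolved against 5.85 and 8.07 in those labelled involved. In IL-17C+ skin it was 5.54 and 4.84 in the uninvolved against 9.80 and 10.03 in the involved pools. The signs of all 6 genes rest on these labels, and IL-6 and the site of inflammation cannot be told apart.

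The other 5 belong to the lists of fat metabolism. Fabp5 had an interaction of -2.84 ± 0.47 (adjusted p = 0.006293), from 2.08 in IL-17C+ to -0.76 in IL-17C+KO skin. Irs1 had 1.77 ± 0.37 (adjusted p = 0.02255), from -1.28 to 0.49. Cebpb had -1.43 ± 0.33 (adjusted p = 0.04143), from 0.96 to -0.46, and the lipase inhibitor G0s2 had -1.50 ± 0.35 (adjusted p = 0.04095), from 0.91 to -0.59. Dio2, the deiodinase that activates thyroid hormone in brown fat and elsewhere, had -1.77 ± 0.34 (adjusted p = 0.01382), from 0.48 to -1.29. It read below the array median on 10 of 12 arrays and above it in IL-17C+KO uninvolved skin, at 4.27 and 4.74, so the size of its difference is uncertain. Without the 10-week IL-17C+ involved pool none of the 6 passed (adjusted p between 0.05204 for Fabp5 and 0.2188 for Cebpb). Fabp5 passed without each of the other 11 pools. The call of Dio2 was also lost without the 10-week IL-17C+ uninvolved, the 10-week IL-17C+KO involved or the 14-week IL-17C+KO uninvolved pool (adjusted p up to 0.08575). That of Irs1 was lost without 6 of 12 pools (either IL-17C+ involved, either IL-17C+KO uninvolved, and the 10-week IL-17C+ uninvolved and IL-17C+KO involved pools; adjusted p up to 0.1569). Those of Cebpb and G0s2 were lost without any 1 of the 10 pools other than WT (adjusted p up to 0.2466). Car3 is given with its pools above. With the muscle mean as a covariate none of the 6 passed. In that fit the SE of Car3 was 0.91 in place of 0.47, and every adipocyte gene had an adjusted p of 0.9999. These misses therefore do not single out any of the 6. Averaged over all rows per gene, Irs1 (1.07, adjusted p = 0.179), Dio2 (-1.11, adjusted p = 0.1179) and G0s2 (-1.02, adjusted p = 0.3051) missed the threshold, and without the replicate block Cebpb (adjusted p = 0.05567) and G0s2 (adjusted p = 0.1259) did.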

How the results depend on the processing

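The count of adipocyte genes that passed stayed at 0 in 7 of 11 comparisons under every alternative run. In IL-17C+ involved skin against WT it was 1, against 0 with the muscle covariate or the other row of Car3 and 3 without both 10-week arrays of nontransgenic mice (WT, IL-6KO), and between 0 and 2 with 1 array left out. Against IL-17C+ uninvolved skin it was 1, and 0 with the muscle covariate or the other row, and between 0 and 1 with 1 array left out. In the interaction it was 1, against 0 with the muscle covariate or the other row, 2 (Car3 and Plin4) with only the arrays of the groups compared or without those 10-week arrays, and between 0 and 1 with 1 array left out. In IL-17C+KO against IL-17C+ involved skin it was 0, against 1 (Car3) without the trend, with only genes above the array median or with quantile normalization again, 2 (Car3 and Plin4) with only the arrays compared or without those 10-week arrays, and between 0 and 2 with 1 array left out. Plin4 reversed with the muscle covariate, to 0.23 against WT, 0.26 against uninvolved skin and -0.094 in the interaction (the cause was not tested). That covariate raised the SE of Car3 in IL-17C+ involved skin against WT from 0.33 to 0.66. Every adipocyte gene had an adjusted p of 0.9998 there, so the count of 0 does not single out Car3. Without the replicate block the calls of Car3 were kept, with adjusted p = 0.03219 against WT, and a replicate block of genotype and age kept those between sites. The alternatives without the 10-week arrays and with the other row of Car3 were chosen after the data were seen. Signal over background limits Ucp1, which lay below every array median, and Lep, which came close to the median in some pools.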
